A study of Mus musculus with 11 samples.

Results

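The 9 genes described here are regulators and surface receptors that define a macrophage. They are the transcription factors Spi1, Cebpa, Cebpb, Maf, Mitf, Klf4 and Gata6, the CSF1 receptor gene Csf1r, and Adgre1, which encodes the F4/80 antigen. They were picked out by gene symbol, and all 9 were found among the 31936 genes of the deposited table. RNA sequencing was done on peritoneal macrophages of female mice, elicited with thioglycollate, an irritant that draws monocytes into the abdominal cavity. In 6 libraries the cells had received a microRNA-150 mimic, a synthetic RNA that acts as this microRNA, and in 5 they had received a negative control. Both groups share the sex, the cell type and the elicitation, and the labels give no strain, age, dose or time. They do not say whether replicates were separate animals or cultures, so p-values measure the spread between these libraries, which may be technical. Libraries of this kind do not measure the mature microRNA, so its level was not checked.

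PU.1, the product of Spi1, is an ETS-family factor that opens macrophage enhancers together with C/EBPα and C/EBPβ, the products of Cebpa and Cebpb. One of its best known targets is Csf1r, the receptor through which the cytokines CSF1 and IL-34 sustain macrophage survival. c-MAF (Maf) restrains macrophage proliferation, MITF drives lysosomal and osteoclast-type genes, KLF4 acts in monocyte differentiation, and GATA6 gives resident macrophages of the peritoneal cavity their tissue-specific program.

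Reads counted on genes numbered 18538509 to 22668862 in a control library and 20313901 to 25473814 in a mimic library. Macrophage markers were abundant, with control means of 11.5 log2 CPM for Cd68, 10.1 for Itgam and 13.7 for Lyz2. CPM stands for the reads of a gene divided by the library's total, as scaled by the authors, times a constant. Mimic replicates 3, 4 and 6 stood furthest from the controls in the base composition of their transcripts. In each library the median log2 deviation from the mean of all libraries was taken for the GC-richest 20% of genes minus the GC-poorest 20%. That GC balance was 0.10 to 0.22 in the 5 controls, 0.077, 0.042 and -0.013 in mimic replicates 1, 2 and 5, and -0.19, -0.37 and -0.32 in mimic replicates 3, 4 and 6. Every mimic library thus lay below every control, so the design cannot tell GC balance and treatment apart. Leaving out mimic replicates 3, 4 and 6 lessens that difference and does not remove it. The same difference between the longest and shortest 20% of transcripts was -0.15 to -0.10 in controls. In mimic replicates 1, 2 and 5 it was -0.19, 0.028 and -0.032, replicate 1 lying below all controls. In mimic replicates 3, 4 and 6 it was 0.19, 0.30 and 0.23. The fold change of each of the 9 genes and the counts of called genes in each list are therefore also given without these 3 libraries and after a correction of each library for transcript length and GC content. Whether these 3 or the other mimic libraries better show the response to the mimic was not tested. For other genes named by the rule given with the methods, these values are given where they change the call. Changes of size alone are given for some genes only.

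Markers of other cells were low beside Cd68, Itgam and Lyz2. Some exceeded the least abundant of the 9 genes. The fibroblast gene Col1a2 had a control mean of 4.43 log2 CPM, against 2.74 for Klf4 and 1.37 for Gata6, none divided by transcript length. Summed over its list of 8 genes, the T and NK cell level was 1.11 to 1.42 CPM in controls and 0.964 to 1.58 in mimic libraries, and the 8 B cell genes summed to 3.65 to 5.79 and 3.04 to 4.13. Of the B cell genes Ighm, with 218 reads in the controls and 172 in the mimic group, fell by 0.75 log2 units (adjusted p 0.0302), a call lost without mimic replicates 3, 4 and 6 (-0.45, adjusted p 0.206) and without control replicate 1, 2 or 3 or mimic replicate 3 or 6 alone (adjusted p 0.0628 to 0.0823). The 7 mast cell genes gave 0.264 to 0.884 and 0.699 to 1.42 CPM, and the 7 dendritic cell genes 4.28 to 5.95 and 3.81 to 5.23. The 10 neutrophil genes summed to 15.1 to 19.0 CPM in controls and 10.2 to 17.1 in mimic libraries, most of it S100a8, whose level fell by 0.56 log2 units (limma, adjusted p 0.00789), with -0.36 (adjusted p 0.211) without mimic replicates 3, 4 and 6 and a fall of 0.36 (adjusted p 0.00271) after the correction. The 7 eosinophil genes summed to 33.7 to 36.1 and 27.4 to 29.2 CPM without overlap, nearly all of it Siglecf, which fell by 0.31 (adjusted p 4.94e-05), while Epx, which encodes the eosinophil peroxidase, totalled 9 reads in the controls and 10 in the mimic group. The 10 mesothelial and fibroblast genes summed to 49.1 to 72.2 and 36.2 to 70.5 CPM. Of these, 0 of 10 were called, but their median log2 fold change was -0.30. No gene of these lists was at 0 reads over all libraries. In bulk samples, fewer cells of a type and less RNA per cell cannot be told apart, and the part of other cells in the results below was not tested.

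Per length of transcript, the 9 genes spanned a wide range in control macrophages. Csf1r led at 284 ± 9.28 CPM per kilobase of the longest annotated transcript (SD, n = 5), above 98.8% of all genes tested. Adgre1 followed at 218 ± 12.8, Cebpa at 172 ± 6.49, Cebpb at 157 ± 5.31 and Spi1 at 143 ± 3.43. Mitf stood at 34.4 ± 0.953 and Maf at 11.7 ± 0.518. Klf4, at 2.22 ± 0.295, and Gata6, at 0.687 ± 0.101, were the least abundant, with 119 to 196 and 36 to 63 reads per library. No 2 neighbours in this order overlapped in the 5 control libraries, although Cebpa exceeded Cebpb, and Cebpb exceeded Spi1, by only 1.09 and 1.10 times. With the mimic the order of the means changed between Cebpb, at 101 ± 20.4 (SD, n = 6), and Spi1, at 128 ± 16.9.

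**Figure D1:**
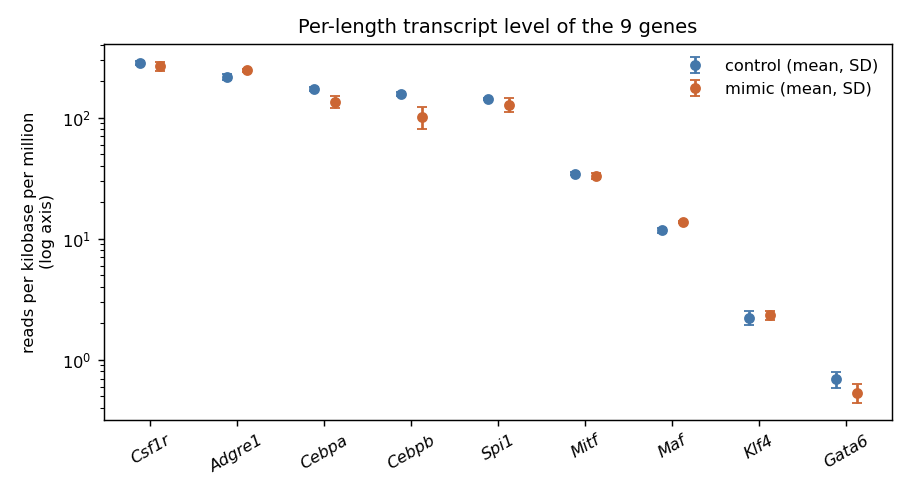
CPM per kilobase of transcript for each of the 9 genes (log axis), with the mean and SD of 5 control libraries and of 6 mimic libraries. Csf1r and Adgre1 stand highest and Gata6 lowest, and Cebpb drops from 157 in controls to 101 with the mimic.

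The comparison asks how these genes differ between cells given the microRNA-150 mimic and cells given the negative control. Both C/EBP factors fell, Maf and Adgre1 rose, and Spi1, Mitf, Klf4, Gata6 and Csf1r did not pass the test. The call was an adjusted p below 0.05 in a limma fit over the 12969 genes tested, in which 30% of genes were called, 15.4% higher and 14.6% lower. Among the 9 genes 2 were higher and 2 lower, and without mimic replicates 3, 4 and 6, as after the length and GC correction, 2 were higher and 3 lower, with Mitf added. Of the 12969 genes tested, 1214 were higher and 886 lower without those libraries, and 1887 and 1687 after the correction. In 4 of the 9 the libraries of the groups did not overlap, against 14.9% of all genes tested. The median log2 fold change was -0.10 over the 9 genes and 0.00071 over all genes tested.

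**Figure D2:**
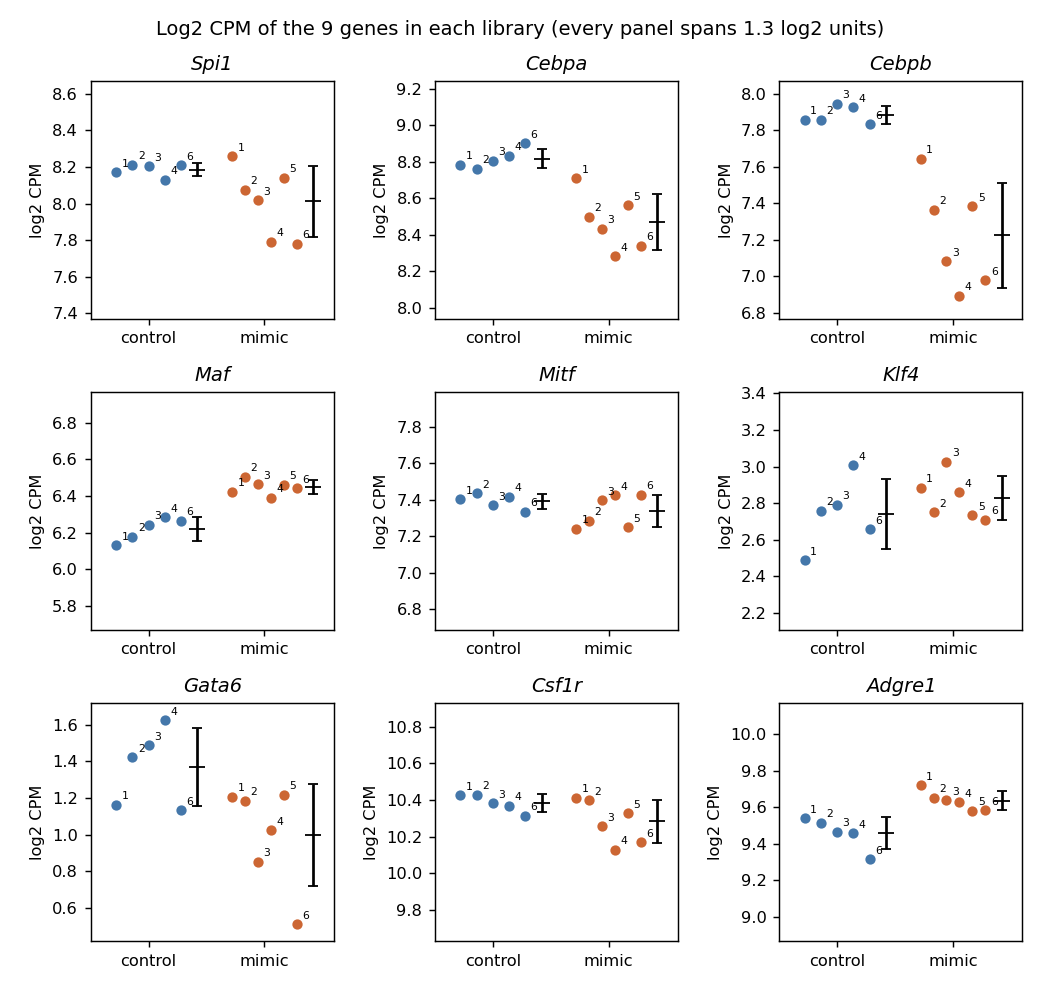
Log2 CPM of the 9 genes in every library, numbered by replicate, with the mean and SD of each group beside the points; every panel spans the same range. Cebpa and Cebpb lie lower, and Maf and Adgre1 higher, in all 6 mimic libraries than in any control library.

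Cebpb, which encodes a C/EBP factor induced in inflammatory activation, showed the largest fold change of the 9 in the fit of all libraries. It measured 7.86, 7.86, 7.94, 7.93 and 7.83 log2 CPM in control replicates 1, 2, 3, 4 and 6, and between 6.89 and 7.64, with a median of 7.22, in the mimic libraries. Every mimic library lay below every control, and mimic replicates 3, 4 and 6 were the lowest at 7.08, 6.89 and 6.98. The log2 fold change was -0.66 ± 0.11 (SE; 95% confidence interval -0.90 to -0.42), a 1.58-fold lower level (limma adjusted p 0.00112; two-sided exact permutation p 0.00433, where 0.00216 is the smallest that regrouping the 11 libraries allows). Without mimic replicates 3, 4 and 6 it was -0.42 (limma adjusted p 0.000145). After the length and GC correction it was -0.28 (limma adjusted p 0.000188).

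Cebpa, the C/EBP factor of myeloid commitment, measured 8.78, 8.76, 8.81, 8.83 and 8.90 log2 CPM in the controls and 8.28 to 8.71, with a median of 8.47, in the mimic libraries. The groups did not overlap, and mimic replicate 1, at 8.71, came closest to the controls. Its log2 fold change was -0.35 ± 0.062 (SE; interval -0.48 to -0.21), a 1.27-fold lower level (limma adjusted p 0.000836; exact permutation p 0.00433). It was -0.23 without mimic replicates 3, 4 and 6 (limma adjusted p 0.000501) and -0.12 after the length and GC correction (limma adjusted p 0.00398). Both transcripts are rich in G and C, at 67.2% for Cebpb and 62.6% for Cebpa, higher than in 99.8% and 98.9% of genes tested. Their values moved with the GC balance of the mimic libraries, and the correction left both calls in place at smaller fold changes. After a correction for GC content alone, Cebpa gave -0.089 (limma adjusted p 0.0328) and Cebpb -0.30 (limma adjusted p 0.00163).

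**Figure D3:**
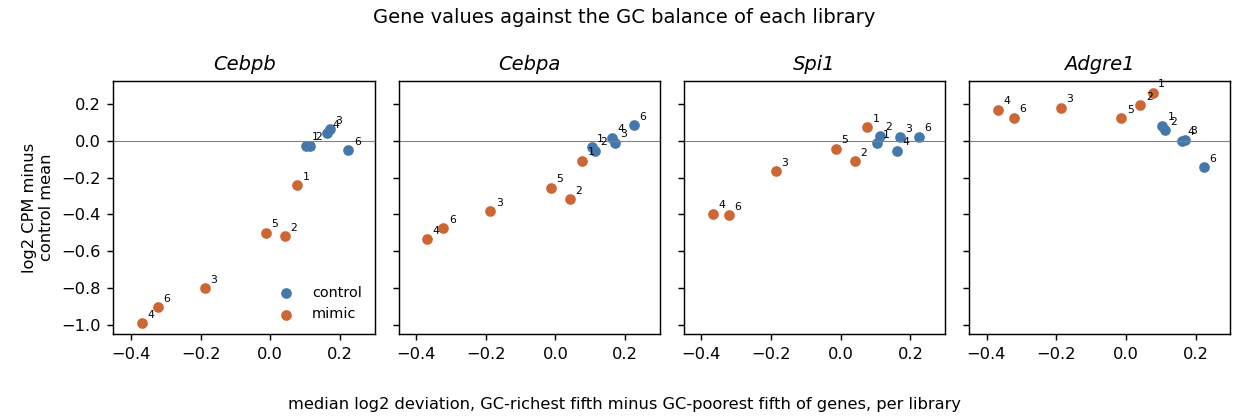
Log2 CPM minus the control mean for Cebpb, Cebpa, Spi1 and Adgre1 (vertical axis) against the GC balance of each library (horizontal axis), for 5 control and 6 mimic libraries numbered by replicate. Mimic replicates 3, 4 and 6, at a GC balance of -0.19, -0.37 and -0.32, hold the lowest Cebpb values. Mimic replicate 1, at 0.077, lies below all controls in GC balance. For Cebpb and Cebpa it is the mimic library nearest the controls, though below all of them.

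In GRCm38, Cebpa lies at chr7:35119293-35121928 and Cebpb at chr2:167688915-167690418, both on the plus strand, and Cebpb has a single annotated exon. That exon shares 312 bases with Tmem189 on the other strand, a gene that itself fell by 0.19 log2 units (limma, adjusted p 0.0272). The strand setting of the authors' counting is not given in the sources used here, so the Cebpb value is uncertain to that extent. Because the 2 genes fell together, their promoters are shown (RefSeq, GRCm38.p6, 250 bases before to 50 after the annotated start, which is base 251 of each window). Cebpa lies at chr7:35119043-35119342 and Cebpb at chr2:167688665-167688964, both on the plus strand and written 5′ to 3′, with capitals marking motif matches.
Cebpa: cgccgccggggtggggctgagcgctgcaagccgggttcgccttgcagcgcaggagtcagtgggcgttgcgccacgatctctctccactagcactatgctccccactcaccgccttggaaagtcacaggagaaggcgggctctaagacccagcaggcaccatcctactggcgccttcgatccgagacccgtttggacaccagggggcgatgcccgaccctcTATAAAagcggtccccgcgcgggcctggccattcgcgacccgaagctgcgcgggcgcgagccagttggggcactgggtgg
Cebpb: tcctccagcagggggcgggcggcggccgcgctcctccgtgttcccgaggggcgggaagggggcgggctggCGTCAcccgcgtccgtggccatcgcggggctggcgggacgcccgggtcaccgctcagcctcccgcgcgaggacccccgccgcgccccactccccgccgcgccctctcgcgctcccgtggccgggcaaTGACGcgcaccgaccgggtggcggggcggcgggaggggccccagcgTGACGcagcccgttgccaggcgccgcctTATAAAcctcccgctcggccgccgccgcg
The motifs, chosen after the values were seen, were searched on both strands and did not overlap in these windows. In the Cebpa window the letters TATAAA (the TATA box) begin at base 221. The Cebpb window holds TATAAA at base 272 and TGACG, a core sequence read by CREB and ATF factors, at bases 71, 198 and 244, the first of these on the other strand. Of 32851 promoters of this length, 13.6% hold TATAAA, 20.8% hold TGACG and 1.04% hold TGACG at least 3 times. Neither window held CCAAT (37.4% of promoters), TTGCNNAA (a C/EBP site, 10.8%), CACGTG (an E box, 7.15%), GAGGAAG (a PU.1 core, 13.6%), GAAANNGAA (an interferon response element, 8.56%) or TTCNNNGAA (a gamma-activated site, 8.30%). Entries were found for 4 of the 9 genes. Of the others, Klf4 and Mitf, which did not pass the test over all libraries, also hold TGACG, Klf4 1 time and 1 of the 3 Mitf windows 2 times. The Klf4 window also holds CACGTG, and among the Mitf windows TTGCNNAA, CCAAT and TATAAA were found as well.

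Of the 5 other C/EBP-named genes tested, 2 rose and 1 fell. Ddit3, the stress-induced member CHOP, rose by 0.66 ± 0.053 (log2 fold change ± SE; adjusted p 8.86e-08), from 5.33 to 5.99 log2 CPM. Its rise was 0.75 without mimic replicates 3, 4 and 6 and 0.77 after the length and GC correction. Cebpd fell by 0.45 ± 0.13 (adjusted p 0.0168), and without those 3 libraries its value was -0.23 (adjusted p 0.0633). Cebpz, which shares the name but lacks the basic leucine zipper of the C/EBP factors, rose by 0.21 ± 0.066 (adjusted p 0.0282), a call lost when control replicate 2, 4 or 6, or mimic replicate 3, 4 or 6, was left out (adjusted p 0.0535 to 0.0796). Its value was 0.069 (adjusted p 0.361) without mimic replicates 3, 4 and 6 and 0.099 (adjusted p 0.0908) after the correction. Cebpg gave 0.072 (adjusted p 0.232). Ddit3 was the 1 gene of these 5 that was called without those libraries, and after the correction 1 was higher and 1 lower.

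Spi1, which encodes PU.1, did not pass the test. Controls measured 8.17, 8.21, 8.20, 8.13 and 8.21 log2 CPM and mimic libraries 7.78 to 8.26, with a median of 8.05. Mimic replicate 1 lay above all controls, mimic replicate 5 within their range, and the other 4 below them, lowest in replicates 4 and 6 at 7.79 and 7.78. Spi1 had a log2 fold change of -0.17 ± 0.073 (SE; interval -0.33 to -0.019; limma adjusted p 0.0812; exact permutation p 0.0823). Without mimic replicate 1 it was -0.22 and called (adjusted p 0.00664), and it was called as well by voom with sample weights and when libraries were scaled by their own totals. Without mimic replicates 3, 4 and 6 it was -0.026 (adjusted p 0.71), and after the length and GC correction 0.014 (adjusted p 0.801). The genes whose profiles over the 11 libraries came closest to Spi1, of 4791 with a mean of at least 5 log2 CPM, were Cox6a1, Zbtb22 and Cyc1, at root mean square differences of 0.030, 0.034 and 0.037 log2 units.

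Of 13 other ETS family genes tested, 2 rose and 0 fell, with a median log2 fold change of 0.092. The counts were 1 and 0 without mimic replicates 3, 4 and 6, and 1 and 2 after the length and GC correction, where Elf2 gave -0.13 (adjusted p 0.0167) against -0.037 before it. Elf1 rose by 0.25 ± 0.038 (adjusted p 0.0002), and by 0.15 after the length and GC correction. Etv6 rose by 0.16 ± 0.053 (adjusted p 0.0297), a call lost without control replicate 1, 2 or 6 or mimic replicate 3, 4 or 6 (adjusted p 0.0569 to 0.0732). Without mimic replicates 3, 4 and 6 together Etv6 gave 0.079 (adjusted p 0.332), and after the length and GC correction 0.11 (adjusted p 0.0586). Without mimic replicate 1, the family had 5 genes called higher, with Fli1, Elk4 and Gabpa added, and 1 called lower, which was Spi1. Without either control replicate 1 or 6, or mimic replicate 3, 4 or 6, 1 was higher. Fli1, an ETS factor of blood and endothelial cells, gave 0.097 (adjusted p 0.0554) in all libraries.

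Maf rose. Controls measured 6.13, 6.18, 6.24, 6.28 and 6.26 log2 CPM and mimic libraries 6.39 to 6.51, with a median of 6.45. All 6 mimic libraries lay above the highest control, and they spread less than the mimic values of Cebpb, with an SD of 0.039 against 0.29. Maf had a log2 fold change of 0.23 ± 0.040 (SE; interval 0.14 to 0.31; limma adjusted p 0.000683; exact permutation p 0.00216), a 1.17-fold higher level. It was 0.24 without mimic replicates 3, 4 and 6 (adjusted p 0.000115) and 0.13 after the length and GC correction (adjusted p 0.04). Maf (chr8:115682942-115707794, minus strand, GRCm38) shares 440 exon bases with a noncoding gene on the other strand, Gm15655, which was not analysed here.

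Among 4 other MAF-named genes of the list that were tested, 0 rose and 2 fell. The counts were 0 and 1 without mimic replicates 3, 4 and 6, and 1 and 1 after the length and GC correction. Maff, a small MAF protein without an activation domain, fell by 0.73 ± 0.087 (adjusted p 1.3e-05), and by 0.59 without mimic replicates 3, 4 and 6. Maf1, a repressor of RNA polymerase III that is not a relative of MAF in sequence, fell by 0.23 ± 0.065 (adjusted p 0.0143), and its value without those libraries was -0.11 (adjusted p 0.0816), and -0.072 (adjusted p 0.12) after the correction. Mafg and Mafk gave -0.089 (adjusted p 0.0917) and 0.054 (adjusted p 0.503). After the correction Mafk was higher by 0.15 and called (adjusted p 0.0161).

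Mitf did not pass the test over all libraries. It measured 7.40, 7.44, 7.37, 7.42 and 7.33 log2 CPM in controls and 7.24 to 7.43, with a median of 7.34, with the mimic. Mimic replicates 1, 2 and 5 lay below all controls and replicates 3, 4 and 6 within their range. Mitf had a log2 fold change of -0.054 ± 0.045 (SE; interval -0.15 to 0.041; limma adjusted p 0.381; exact permutation p 0.234). Without mimic replicates 3, 4 and 6 it was -0.13 and called (adjusted p 0.00924), and after the length and GC correction it was -0.18 and called (adjusted p 3.14e-05). The Mitf transcript, with 43.4% G and C, is the poorest in these bases of the 9.

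Of the 3 other MiT/TFE genes, 1 fell and 1 rose. Tfeb fell by 0.43 ± 0.066 (adjusted p 0.000195), by 0.31 without mimic replicates 3, 4 and 6 and by 0.19 after the length and GC correction. Tfec, a member found mainly in macrophages, rose by 0.21 ± 0.051 (adjusted p 0.00641), with 0.095 after the correction (adjusted p 0.179). Tfe3 gave -0.076 (adjusted p 0.24). The counts of these 3 were 1 higher and 1 lower without mimic replicates 3, 4 and 6, and 0 and 1 after the correction. Of 13 MITF and TFE targets of lysosome and osteoclast type, 1 rose and 4 fell, with a median of -0.088. Itgb3, the integrin β3 of osteoclasts, fell by 0.49 ± 0.061 (adjusted p 1.91e-05), Mmp9 by 0.63 ± 0.16 (adjusted p 0.0088) and Mcoln1, a lysosomal calcium channel, by 0.14 ± 0.041 (adjusted p 0.0165). Without mimic replicates 3, 4 and 6 the counts were 2 and 3 (3 and 4 after the length and GC correction), Mmp9 fell by 0.36 (adjusted p 0.04), and Mcoln1 gave -0.084 (adjusted p 0.115). The count of genes called higher in that list was 0 without any single control or mimic replicate 5 and 2 without mimic replicate 1.

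Klf4 and Gata6 are low genes here, and neither passed the test. Klf4 measured 2.49, 2.76, 2.79, 3.01 and 2.66 log2 CPM in controls and 2.71 to 3.03, with a median of 2.80, with the mimic. The groups overlapped, with mimic replicate 3 alone above all controls, and the log2 fold change was 0.086 ± 0.090 (SE; interval -0.10 to 0.28; limma adjusted p 0.49; exact permutation p 0.374). It was 0.049 without mimic replicates 3, 4 and 6 (adjusted p 0.812), 0.16 after the length and GC correction (adjusted p 0.2), and 0.023 and 0.15 without control replicate 1 or control replicate 4. It was 0.046 without mimic replicate 3, so its size rests on single libraries. Gata6 measured 1.16, 1.42, 1.49, 1.63 and 1.13 log2 CPM in controls and 0.51 to 1.22, with a median of 1.10, with the mimic. Mimic replicates 3, 4 and 6 lay below all controls and the other 3 within their range. The log2 fold change was -0.37 ± 0.15 (SE; interval -0.67 to -0.061; limma adjusted p 0.0654; exact permutation p 0.0433, not adjusted for the 9 genes), and without mimic replicates 3, 4 and 6 it was -0.16 (adjusted p 0.518). After the length and GC correction the Gata6 value was -0.31 (adjusted p 0.107), against -0.28 for Cebpb. Without mimic replicate 1 it was -0.41 and called (adjusted p 0.0363). Gata6 shares 93 exon bases with a noncoding gene on the other strand, 1010001N08Rik, that had 49 reads over all libraries.

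Of 10 other KLF genes tested, 2 rose and 4 fell. Klf6, which promotes inflammatory gene expression, rose by 0.32 ± 0.038 (adjusted p 9.88e-06) and by 0.20 after the length and GC correction. Klf9 fell by 0.32 ± 0.042 (adjusted p 4.45e-05), and Klf13 by 0.18 ± 0.043 (adjusted p 0.00628). Klf16 fell by 0.36 ± 0.10 (adjusted p 0.0144), with -0.27 (adjusted p 0.0862) without mimic replicates 3, 4 and 6 and -0.18 (adjusted p 0.107) after the correction. Klf11 rose by 0.14 ± 0.048 (adjusted p 0.0336), a call lost when control replicate 2, 3, 4 or 6, or mimic replicate 3, 4 or 6, was left out (adjusted p 0.0511 to 0.0792). Without mimic replicates 3, 4 and 6 together Klf11 gave 0.11 (adjusted p 0.233), and after the correction 0.10 (adjusted p 0.0996). The fourth gene to fall was Klf2, at -0.45 ± 0.14 (adjusted p 0.0259), named after its values were seen. The counts were 1 higher and 2 lower without mimic replicates 3, 4 and 6, and 1 and 4 after the correction. Klf3, Klf7 and Klf10 gave 0.046, -0.032 and -0.054, with adjusted p of 0.571, 0.742 and 0.32, but after the correction Klf7 and Klf10 were lower, at -0.16 (adjusted p 0.021) and -0.087 (adjusted p 0.0413).

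**Figure D4:**
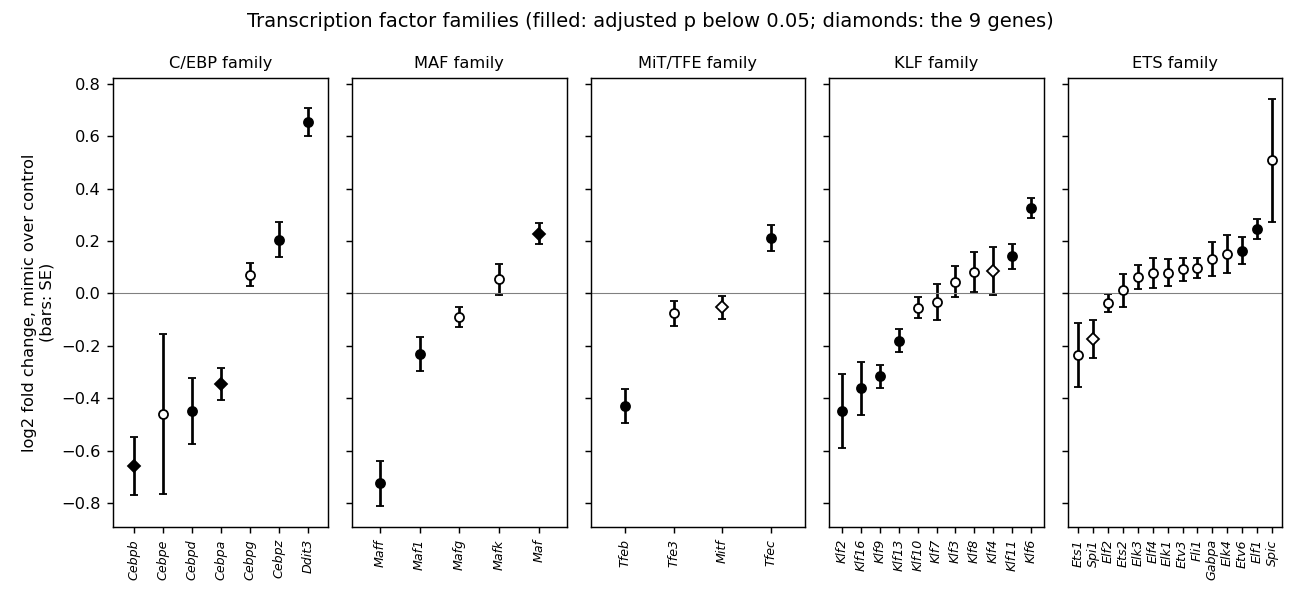
Log2 fold change with its SE for the listed genes tested of 5 transcription factor families, filled where the adjusted p is below 0.05, with diamonds for the 9 genes described here. Cebpb, Cebpa and Cebpd lie below 0 and Ddit3 above it in the C/EBP panel, and each of the MAF, MiT/TFE and KLF panels holds called genes on both sides of 0.

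GATA6 maintains resident large peritoneal macrophages. Of 16 other genes of these cells that were tested, 2 rose and 1 fell, with a median of -0.082, and the counts were 2 and 1 also without mimic replicates 3, 4 and 6 and after the length and GC correction. Cd5l rose by 0.26 ± 0.037 (adjusted p 9.8e-05), and Rarg, a retinoic acid receptor, fell by 0.40 ± 0.069 (adjusted p 0.000622), or by 0.25 after the correction. Timd4, a phagocytic receptor of long-lived resident macrophages, rose by 0.59 ± 0.21 (adjusted p 0.0489) at a control mean of -0.15 log2 CPM. Its call was lost when control replicate 2, 4 or 6, or any of mimic replicates 2 to 6, was left out (adjusted p 0.0605 to 0.123), and its value was 0.38 without control replicate 6. It was 0.75 (adjusted p 0.0503) without mimic replicates 3, 4 and 6 together and 0.55 (adjusted p 0.0563) after the correction. Without mimic replicate 1 the genes called lower numbered 2, Gata6 being added, and 2 without mimic replicate 5.

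Of 12 genes of small peritoneal macrophages and monocytes, 5 rose and 2 fell, and the counts were 5 and 2 without mimic replicates 3, 4 and 6, and 5 and 3 after the length and GC correction. Ly6c2, which marks inflammatory monocytes, rose by 2.15 ± 0.25 (adjusted p 7.43e-06), from -1.29 to 0.85 log2 CPM. Ccr2, the receptor that draws monocytes out of the marrow, rose by 0.81 ± 0.098 (adjusted p 1.5e-05) and was 0.84 higher without mimic replicates 3, 4 and 6. Fn1, which encodes fibronectin, fell by 0.75 ± 0.060 (adjusted p 7.63e-08). The other gene to fall was Cd209a, at -1.45 ± 0.44 (adjusted p 0.0218), a call lost without control replicate 1 (adjusted p 0.0518).

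Csf1r did not pass the test. Controls measured 10.43, 10.43, 10.38, 10.37 and 10.31 log2 CPM and mimic libraries 10.13 to 10.41, with a median of 10.29. Mimic replicates 3, 4 and 6 lay below all controls, at 10.26, 10.13 and 10.17, and replicates 1, 2 and 5 within their range. The log2 fold change was -0.10 ± 0.052 (SE; interval -0.21 to 0.0087; limma adjusted p 0.148; exact permutation p 0.119). Without mimic replicates 3, 4 and 6 it was -0.0037 (adjusted p 0.961), and after the length and GC correction -0.076 (adjusted p 0.221), whereas without mimic replicate 1 it was -0.13 and called (adjusted p 0.0455). Csf1r shares 873 exon bases with Hmgxb3 on the other strand, which gave -0.025 (adjusted p 0.7). The profiles closest to Csf1r over the 11 libraries were those of 4930533O14Rik, Eif4a3 and Gnai2, at root mean square differences of 0.027, 0.029 and 0.030 log2 units.

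Around the receptor, 7 of 24 other genes of the CSF1 axis rose and 6 fell, with a median log2 fold change of 0.012. Csf1, the ligand, rose by 0.47 ± 0.094 (adjusted p 0.00182), from 2.93 to 3.40 log2 CPM, and was 0.55 higher without mimic replicates 3, 4 and 6. The other ligand, Il34, totalled 12 reads in the control group and 13 in the mimic group and was not tested. Pik3ap1, an adaptor of PI3 kinase, rose by 0.32 ± 0.039 (adjusted p 1.61e-05), and Lyn, a SRC-family kinase, by 0.26 ± 0.039 (adjusted p 0.000185). Among the genes that fell, named after their values were seen, were the receptor adaptors Shc1, by 0.25 ± 0.058 (adjusted p 0.00552), Grb2, by 0.16 ± 0.040 (adjusted p 0.00797), and Tyrobp, by 0.42 ± 0.14 (adjusted p 0.0358). The count of 6 genes lower was 3 without control replicate 1, control replicate 3, mimic replicate 3, mimic replicate 4 or mimic replicate 6, each left out alone, and 3 without the last 3 together, where 6 were higher. After the length and GC correction 8 were higher and 6 lower.

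Adgre1, an adhesion-type receptor used to identify mouse macrophages, rose. Controls measured 9.54, 9.52, 9.46, 9.46 and 9.32 log2 CPM and mimic libraries 9.58 to 9.72, with a median of 9.63. All mimic libraries lay above the highest control, though the nearest pair, at 9.58 and 9.54, were close, and control replicate 6 was the lowest library. The log2 fold change was 0.18 ± 0.044 (SE; interval 0.083 to 0.27; limma adjusted p 0.0079; exact permutation p 0.00216), a 1.13-fold higher level. It was 0.19 without mimic replicates 3, 4 and 6 (adjusted p 0.00539) and 0.14 after the length and GC correction (adjusted p 0.00803). Adgre1 lies at chr17:57358691-57483527 on the plus strand of GRCm38. The closest profiles were those of Lactb, Arl6ip1 and Necap1, at root mean square differences of 0.041, 0.042 and 0.044.

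**Figure D5:**
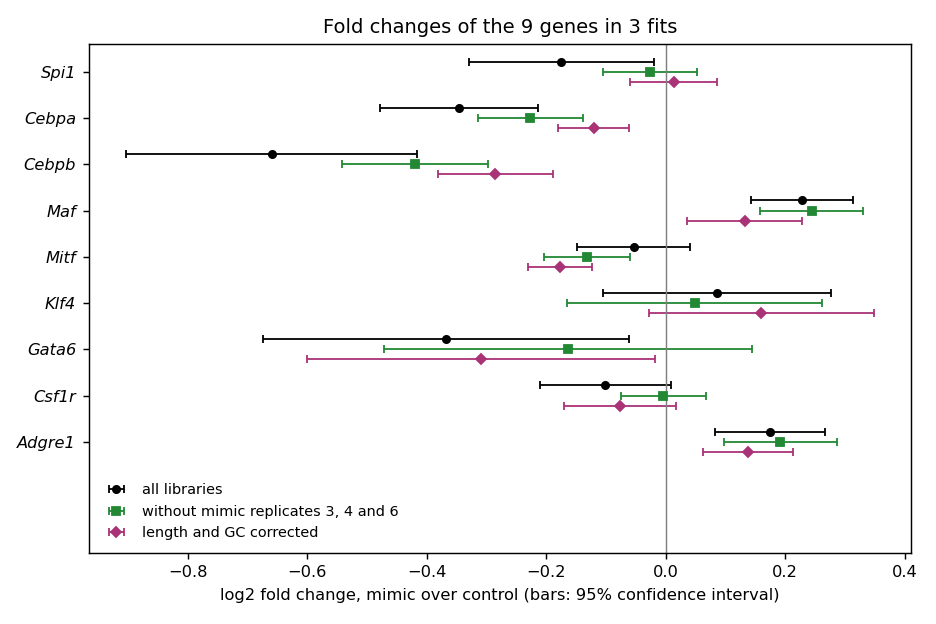
Log2 fold change of the 9 genes, mimic over control, with 95% confidence intervals, in all libraries, without mimic replicates 3, 4 and 6, and after correction for transcript length and GC content. Cebpa and Cebpb stay below 0 and Maf and Adgre1 above it in all 3 fits, while the Spi1 value is -0.17 in all libraries and 0.014 after the correction.

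Of 22 other macrophage surface and core genes tested, 5 rose and 7 fell, with a median of 0.012. Siglec1, a sialic acid receptor known to respond to interferon, rose by 1.21 ± 0.062 (adjusted p 2.45e-10), and Fcgr1, the high-affinity Fc receptor, by 1.32 ± 0.078 (adjusted p 4.05e-09). These values were 1.25 and 1.42 without mimic replicates 3, 4 and 6, where 6 genes of the list were higher and 4 lower. After the length and GC correction 8 were higher and 5 lower. Of the general macrophage markers, Cd68, Itgam and Mertk gave 0.0047, 0.056 and 0.077, with adjusted p of 0.967, 0.333 and 0.0998. Others, named after their values were seen, fell: the lysozyme gene Lyz2 by 0.23 (adjusted p 0.0251), the endotoxin co-receptor Cd14 by 0.26 (adjusted p 0.0153), Lgals3, which encodes galectin-3, by 0.26 (adjusted p 0.015), and Sirpa, the receptor for CD47, by 0.18 (adjusted p 0.00416). Among 25 further myeloid transcription factors, 2 rose and 4 fell, with a median of -0.031. Bhlhe40, a repressor in macrophage cytokine responses, fell by 0.27 ± 0.038 (adjusted p 8.32e-05), Batf3, a dendritic cell factor, by 0.53 ± 0.12 (adjusted p 0.00414), and Rbpj, the DNA-binding partner of Notch, rose by 0.25 ± 0.053 (adjusted p 0.00272). After the length and GC correction Batf3 gave -0.20 (adjusted p 0.309) and Rbpj 0.12 (adjusted p 0.03). Of these factors 2 were higher and 3 lower without mimic replicates 3, 4 and 6. After the correction 2 were higher and 7 lower, and without mimic replicate 1 the higher genes numbered 4. PU.1 partners Irf8 and Runx1 gave -0.074 (adjusted p 0.342) and 0.047 (adjusted p 0.558).

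The authors' deposited table gives log2 fold changes close to those of the fit for the genes called. It lists Cebpb at -0.67 (adjusted p 2.69e-05), Cebpa at -0.35 (adjusted p 0.000139), Maf at 0.23 (adjusted p 0.000804) and Adgre1 at 0.17 (adjusted p 0.00152). The 5 others have adjusted p-values above 0.05 in the authors' deposited table as well, with Spi1 at 0.0842, Csf1r at 0.107 and Gata6 at 0.153.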

How the data were processed

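RNA sequencing of 11 libraries was analysed, 5 control and 6 mimic, grouped by sample title; 1 further sample, left out by the submitters for improper fragmentation, was not analysed here. The submitters' processing notes name STAR, Subread, featureCounts and edgeR, without versions. Not given in the sources used here are the genome build, the annotation and whether counting used strand. Values were deposited by the authors as log2 CPM. By the values themselves these are log2((reads + 0.5) / scaled total), up to a constant, and whole reads were recovered for 100% of values within 0.01 read. The authors' deposited log2 fold change, p-value and adjusted p-value of each gene come from a test the sources used here do not name, and the deposited score columns (t statistic and log odds) and linear fold were not used. The first of the 32265 rows for each gene was kept.

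limma 3.58.1 in R 4.3.3 (statmod 1.5.0, trend and robust settings) was fitted with a group term to the 12969 genes that reached a log2 CPM of -1 in 5 or more libraries, with Benjamini-Hochberg adjustment over them and a call at adjusted p below 0.05. Every adjusted p-value of the text is from this fit unless another fit or the authors' table is named. The fit was tested on simulated data. Exact permutation tests were two-sided and are not adjusted. Transcript lengths, GC content and coordinates came from GENCODE M21 (GRCm38), which may not be the authors' annotation, and 99.7% of genes tested had a length. The length and GC correction took a lowess curve (span 0.3) off each library's deviations. Other software was pandas 2.3.3, matplotlib 3.10.9 and numpy 2.4.6.

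The 9 genes, the gene lists and the tests were chosen with earlier results of these data known, and the corrections that use GC content were added after seeing the data. Named genes were the 9 members, up to 3 called genes of each list by smallest p, family paralogs at a mean of 3 log2 CPM or more, and the 3 closest profiles to Csf1r, Adgre1 and Spi1. No library was treated as a duplicate, since chi-square per degree of freedom between replicates was 2.60 to 44.2.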

Additional observations from a re-analysis of the deposited data

Results flagged for a closer look

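None of the 9 genes had a library that stood apart from its group, but 6 of the 138 groups checked, covering 69 genes, did, where chance alone would give about 1 in 20. In each case the gap between that library and the nearest other was large beside the range of the group. Cebpd measured 3.56 log2 CPM in control replicate 1 and 3.78 to 3.83 in the other controls. Klf7 measured 4.29 in control replicate 4 and 4.47 to 4.53 in the others. Fcgr1 measured 7.11 in control replicate 3 and 6.68 to 6.69 in the others, still below every mimic library. Arl6ip1 measured 8.11 in control replicate 6 and 8.23 to 8.27 in the others. Among mimic libraries, Bhlhe40 measured 7.84 in replicate 4 and 7.95 to 8.00 in the others, and Timd4 measured 0.96 in replicate 2 and 0.24 to 0.44 in the others.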

How the results depend on the processing

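Cebpa, Cebpb and Adgre1 kept their direction and their call in all 26 alternatives, and Maf in 25. The genes called numbered 1214 higher and 886 lower without mimic replicates 3, 4 and 6, and 967 and 792 at an adjusted p below 0.01, a stricter threshold. Of the 9 genes, 5 were called lower by voom with sample weights (Spi1, Gata6 and Csf1r added). The sample weights of that fit ran from 0.36 in mimic replicate 1 to 1.82 in mimic replicate 3. That fit called 2961 of the 12969 genes tested higher and 2660 lower. When single libraries were left out, 2 to 5 of the 9 were called lower, 5 only without mimic replicate 1. Over all genes tested, leaving out single libraries gave 1488 to 2693 higher and 1403 to 2506 lower. The labels do not say whether replicate numbers pair the libraries. In deviations from the group means, control and mimic libraries of the same number correlated at -0.053 to 0.065. Those of different numbers correlated at -0.10 to 0.10. These correlations cannot exclude pairing, because trends across whole libraries, such as the GC balance, enter them. The fit with the replicate block leaves out mimic replicate 5, which has no control of its number. With the block 2 of the 9 were higher and 4 lower, with Gata6 (-0.41, adjusted p 0.0485) and Spi1 (-0.20, adjusted p 0.0443) added. The block fit called 1775 of the 12969 genes tested higher and 1793 lower. Leaving out mimic replicate 5 without a block gave Gata6 and Spi1 the same fold changes, with adjusted p 0.0525 and 0.0547. When the length and GC correction was joined to the block, 1 was higher (Adgre1), and Maf gave 0.12 (adjusted p 0.157). In that fit 4 were lower, namely Cebpa, Cebpb, Mitf (-0.17, adjusted p 0.000432) and Csf1r (-0.084, adjusted p 0.0384). Of all 12969 genes tested it called 1825 higher and 1632 lower. Spi1 and Gata6 were not called there, at 0.0046 (adjusted p 0.929) and -0.35 (adjusted p 0.0712). Cox6a1 reversed to 0.26 with the length and GC correction, and to 0.26 with the block added; the cause was not tested. For the other 60 named genes, 1402 of 1556 values kept direction and call, 105 lost the call, 47 gained one and 2 reversed. The search for microRNA-150 sites was not run. Gata6 had 36 to 63 reads per library, the fewest of the 9.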
